A study of Mus musculus with 9 samples.

Results

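The Krüppel-like factor genes of mouse embryonic stem cells were followed through treatment with 5-ITu, to find out whether the rise of Klf4 was shared by its relatives. All genes whose symbol is Klf followed by a number were taken when a probe set of the array named that gene alone, and this gave 13 of the 8625 genes with such a probe set. Klf2, Klf3, Klf4, Klf5, Klf6, Klf7, Klf8, Klf9, Klf10, Klf11, Klf12, Klf15 and Klf16 each had 1 probe set. The cells were E14, a line of mouse embryonic stem cells kept in serum and LIF, the cytokine that sustains their self-renewal. For 26 h they were given 5-ITu at 0.1 μM, 5-ITu at 1.0 μM or DMSO alone, and RNA of 3 biological replicates per condition was read on 9 Affymetrix Mouse Gene 2.0 ST arrays. 5-ITu (5-iodotubercidin) is an adenosine analogue used to inhibit Haspin, the kinase that phosphorylates histone H3 in mitosis. All values are log2 signals after RMA, the authors' background correction, normalization and summary of the probes. A signal of one probe set cannot be set against that of another, so that levels are compared only within a gene.

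Krüppel-like factors share zinc fingers at the C-terminus that bind CACCC boxes and GC-rich sites, and they differ in the partners bound by the rest of the protein. One class recruits acetyltransferases and mostly activates genes (Klf2, Klf4, Klf5, Klf6 and Klf7 here), another binds the corepressor CtBP (Klf3, Klf8 and Klf12), and another binds Sin3 (Klf9, Klf10, Klf11 and Klf16). These are 5 of 6 listed genes of the activating class, 3 of 3 of the CtBP class and 4 of 6 of the Sin3 class. Of other listed members 1 of 3 was present (Klf15). The absent members of the family could not be followed. In mouse embryonic stem cells Klf2, Klf4 and Klf5 act together with Oct4, Sox2 and Nanog and can partly replace each other, and Klf4 is a target of the LIF and STAT3 pathway.

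The sequences just upstream of Klf4, Klf8 and Klf2 are shown because, among the genes above background on all arrays, Klf4 and Klf8 gave the highest rises and Klf2 the largest fall between the doses. They are RefSeq sequences of GRCm38.p6, the 250 bases before the annotated start, in the direction of the gene. Capitals mark CACCC, the box bound by the family, and GGGCGG, the GC box, each on either strand.
Klf4 (chr4:55532476-55532725, minus strand): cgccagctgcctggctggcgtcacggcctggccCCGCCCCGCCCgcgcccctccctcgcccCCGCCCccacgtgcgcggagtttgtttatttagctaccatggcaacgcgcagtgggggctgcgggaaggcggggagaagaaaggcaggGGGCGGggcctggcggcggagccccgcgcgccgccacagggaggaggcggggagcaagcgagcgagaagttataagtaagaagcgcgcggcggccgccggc
Klf8, first start (chrX:153237498-153237747, plus strand): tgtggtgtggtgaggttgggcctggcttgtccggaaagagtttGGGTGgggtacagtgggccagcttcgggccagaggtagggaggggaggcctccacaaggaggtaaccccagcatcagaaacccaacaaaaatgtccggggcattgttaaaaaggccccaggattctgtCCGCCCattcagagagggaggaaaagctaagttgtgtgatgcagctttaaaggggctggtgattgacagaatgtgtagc
Klf8, second start (chrX:153359363-153359612, plus strand): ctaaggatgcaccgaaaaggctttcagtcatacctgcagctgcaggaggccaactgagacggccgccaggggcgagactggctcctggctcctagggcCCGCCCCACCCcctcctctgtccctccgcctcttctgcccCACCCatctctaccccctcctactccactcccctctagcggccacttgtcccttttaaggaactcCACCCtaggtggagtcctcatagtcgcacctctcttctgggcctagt
Klf2 (chr8:72318812-72319061, plus strand): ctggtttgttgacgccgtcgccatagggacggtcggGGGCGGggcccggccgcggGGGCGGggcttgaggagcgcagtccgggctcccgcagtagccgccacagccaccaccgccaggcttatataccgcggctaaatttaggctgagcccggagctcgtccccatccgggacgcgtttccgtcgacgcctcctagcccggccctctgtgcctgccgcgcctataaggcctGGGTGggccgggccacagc
The Klf4 window held 4 GGGCGG boxes, of which a pair overlapped by a base, and no CACCC. The second Klf8 window held 3 CACCC boxes, the nearest one 42 bases before the start, and the Klf2 window held 1 CACCC, 14 bases before the start. Of the 13 genes, 10 had a window in the table used, and Klf5, Klf10 and Klf16 did not. CACCC was found in 8 of the 11 windows of Klf genes, against 52% of all 32851 windows of this length, and GGGCGG in 9 of the 11, against 32.7% of all. TTCNNNGAA, the core of a STAT site, was found in 1 of the 11 windows, that of Klf9, against 7.02% of all. These matches only describe the letters, and factor binding was not measured.

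Of the 13 genes, 11 were above the floor on all 9 arrays. The floor is the lowest maximum of any row in the deposited table, a log2 signal of 8.46, and the methods state that only probes above a background threshold were considered. Klf7 exceeded it on 2 arrays and was not tested, since at least 3 arrays above the floor were required, and Klf15 exceeded it only on the 3 arrays of 0.1 μM. Klf15 thus entered the fit only through the dose at which it was highest, and its test is left out here and in all counts of the family. The 11 genes were tested with the 9911 probe sets that passed, and rose, fell and called refer to a limma p under 0.05 after Benjamini-Hochberg adjustment over all of them. The arrays had 9469 to 9780 probe sets above the floor. Signals of a Klf gene differed little among the 3 arrays of a condition, with a median SD of 0.10 for DMSO, 0.03 for 0.1 μM and 0.07 for 1.0 μM, against 0.09, 0.04 and 0.08 over all probe sets tested.

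**Figure D1:**
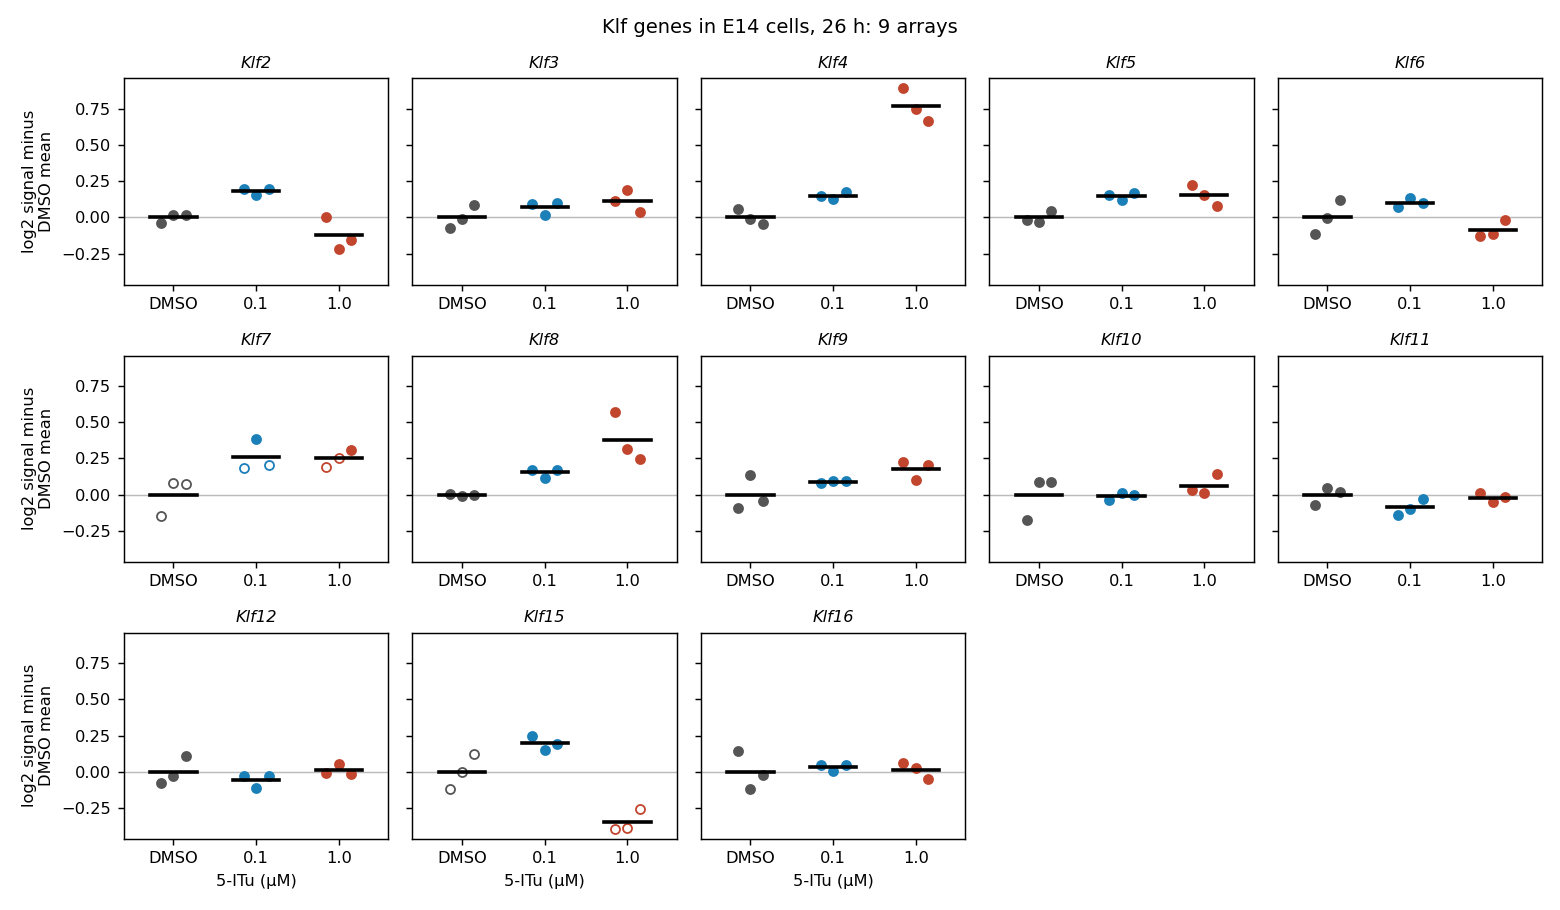
Log2 signal of each of the 13 Klf genes on each of the 9 arrays, minus the mean of the 3 DMSO arrays of that gene, with DMSO and with 5-ITu at 0.1 μM or 1.0 μM. Points are arrays, lines are means, and open points lie under the floor of 8.46. Klf4 stands 0.77 above DMSO at 1.0 μM and Klf8 0.38, and the filled points of Klf15 are those of 0.1 μM alone.

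Among the 11 Klf genes above the floor on all arrays, Klf4 rose most with 1.0 μM 5-ITu. Its log2 signal was 10.70, 10.63 and 10.60 with DMSO, 10.79, 10.77 and 10.82 with 0.1 μM, and 11.54, 11.39 and 11.31 with 1.0 μM. No array of one condition reached into the range of another. At 1.0 μM Klf4 was 0.77 ± 0.06 (SE, n = 3 per group) higher than with DMSO, a 1.71-fold rise (limma, adjusted p = 0.000114), and 0.62 higher than at 0.1 μM (adjusted p = 0.000221). It ranked 22 by p among the tested probe sets and lay at percentile 99.6 by its change. At 0.1 μM the difference from DMSO was 0.15 and did not pass the test (adjusted p = 0.161). Klf4 was already named by the study from these arrays, so this test is not independent evidence of its rise. Apart from the arrays, the study reports higher Klf4 by quantitative PCR and by immunostaining. In cells with a disrupted Haspin gene the study found no change of Klf4. It describes the rise with 5-ITu as apparently unrelated to the inhibition of Haspin. The cause of the rise was not tested here. In RNA of whole cultures, here and for the genes that follow, a change per cell and a change in the share of cells of a type cannot be told apart.

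The closest partners of Klf4 in the stem cell network, Klf2 and Klf5, did not rise to the same extent. Klf5, which keeps embryonic stem cells from differentiating, had 11.93, 11.91 and 11.99 with DMSO, 12.10, 12.06 and 12.11 with 0.1 μM, and 12.17, 12.10 and 12.02 with 1.0 μM. Both doses lay above all DMSO arrays and overlapped each other. At 1.0 μM Klf5 rose 1.11-fold (log2 difference 0.15, limma adjusted p = 0.0429). This call was lost in 10 of 18 other ways of running the test, among them leaving out any one array of DMSO (adjusted p = 0.0545 to 0.0879) or of 0.1 μM (adjusted p = 0.0633 to 0.0723), or replicate 1 or 2 of 1.0 μM (adjusted p = 0.127 and 0.0991). The difference at 0.1 μM was also 0.15 and missed the threshold (adjusted p = 0.0965), and that between the doses was 0.00 (95% confidence interval -0.11 to 0.11).

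Klf2, the factor needed for the naive state under kinase inhibitor culture, had 10.50, 10.56 and 10.56 with DMSO, 10.74, 10.70 and 10.74 with 0.1 μM, and 10.55, 10.33 and 10.39 with 1.0 μM. The arrays of 0.1 μM lay above all others, and at 1.0 μM only replicate 1 lay within the DMSO range. Between the doses Klf2 was 0.31 lower at 1.0 μM than at 0.1 μM (limma, adjusted p = 0.00468), in each of 18 other ways of running the test as well. Against DMSO it was 0.19 higher at 0.1 μM (adjusted p = 0.0880) and 0.12 lower at 1.0 μM (adjusted p = 0.148), and neither passed. Without 1.0 μM replicate 1, both passed, at 0.19 (adjusted p = 0.0417) and -0.19 (adjusted p = 0.0275).

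Klf6, an activator first known from injured tissue, passed only in the comparison of the doses. It had 11.20, 11.32 and 11.44 with DMSO, 11.40, 11.46 and 11.42 with 0.1 μM, and 11.20, 11.21 and 11.31 with 1.0 μM. Klf6 was 0.19 lower at 1.0 μM than at 0.1 μM (limma, adjusted p = 0.0483), a call lost in 9 of 18 other ways of running the test. It was lost without DMSO replicate 2 (adjusted p = 0.0547), without any one array of 0.1 μM (adjusted p = 0.0957 to 0.141) and without replicate 1 or 2 of 1.0 μM (adjusted p = 0.131 and 0.130). With array weights Klf6 was also called lower at 1.0 μM than with DMSO (-0.17, adjusted p = 0.0383). The DMSO arrays overlapped those of both doses. Klf7, which is expressed in neurons, had 8.05, 8.28 and 8.27 with DMSO, 8.39, 8.58 and 8.41 with 0.1 μM, and 8.39, 8.45 and 8.51 with 1.0 μM. These signals lie around the floor and were not tested.

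Among the genes for CtBP-binding repressors, Klf8 rose. Its signal was 10.16, 10.15 and 10.15 with DMSO, 10.32, 10.27 and 10.32 with 0.1 μM, and 10.72, 10.47 and 10.40 with 1.0 μM. The conditions did not overlap, and the arrays of 1.0 μM were further apart than the others. Klf8 was 0.38 ± 0.08 (SE, n = 3 per group) higher at 1.0 μM than with DMSO, a 1.30-fold rise (limma, adjusted p = 0.0060), which kept its call in each of 18 other ways of running the test and was 0.28 without replicate 1 of that dose. At 0.1 μM the difference from DMSO was 0.15 (adjusted p = 0.244), and that between the doses was 0.22 (adjusted p = 0.0506), or 0.29 without 1.0 μM replicate 3 (adjusted p = 0.0190). Replicate 1 of 1.0 μM had the highest signal of its dose for Klf4, Klf5 and Klf8, and also for Klf2, Klf9, Klf11 and Klf16. It did not for Klf3, Klf6, Klf10 and Klf12.

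Klf3, best known as a repressor in red blood cells and fat, had 10.99, 11.05 and 11.15 with DMSO, 11.16, 11.09 and 11.17 with 0.1 μM, and 11.18, 11.25 and 11.10 with 1.0 μM. The conditions overlapped. The difference at 1.0 μM was 0.11 (95% confidence interval -0.02 to 0.24, adjusted p = 0.178). Klf12, the remaining gene of this class, had means of 9.62, 9.56 and 9.62 for DMSO, 0.1 μM and 1.0 μM, and did not pass in any comparison.

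None of the 4 genes of the Sin3-binding class that could be followed, of 6 listed, was called at either dose. Of all tested probe sets 13.4% rose and 14.3% fell at 1.0 μM, and 4.66% and 1.56% at 0.1 μM. With 4 genes, the count does not set this class apart. Klf9, a gene induced by glucocorticoids, came nearest to a call. Its signal was 11.69, 11.91 and 11.74 with DMSO, 11.86, 11.87 and 11.87 with 0.1 μM, and 12.01, 11.88 and 11.99 with 1.0 μM. One DMSO array, replicate 2, lay within the treated range. At 1.0 μM Klf9 was 0.18 higher and did not pass (limma, adjusted p = 0.0612). It was called in 4 of 18 other ways of running the test, which were without DMSO replicate 2 (0.25, adjusted p = 0.00939), quantile normalization (adjusted p = 0.0357), trend and robust variance (adjusted p = 0.0409) and array weights (adjusted p = 0.0456). Klf10, an early gene of TGF-beta signalling, had means of 10.34, 10.33 and 10.40 for DMSO, 0.1 μM and 1.0 μM. Klf11 had means of 9.52, 9.43 and 9.50, and Klf16 of 10.73, 10.77 and 10.74, in the same order. The 95% confidence intervals of these genes at 1.0 μM ran from -0.10 to 0.22 for Klf10, from -0.13 to 0.09 for Klf11 and from -0.14 to 0.16 for Klf16.

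Klf15, a regulator of metabolism in muscle and liver, was near background. It had 8.22, 8.34 and 8.45 with DMSO, 8.58, 8.48 and 8.53 with 0.1 μM, and 7.93, 7.94 and 8.08 with 1.0 μM. All arrays of DMSO and of 1.0 μM were under the floor, so these groups have no fold between them. With the floor in place of its signal at 1.0 μM, Klf15 was at least 1.05-fold lower there than at 0.1 μM, a description with no test.

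**Figure D2:**
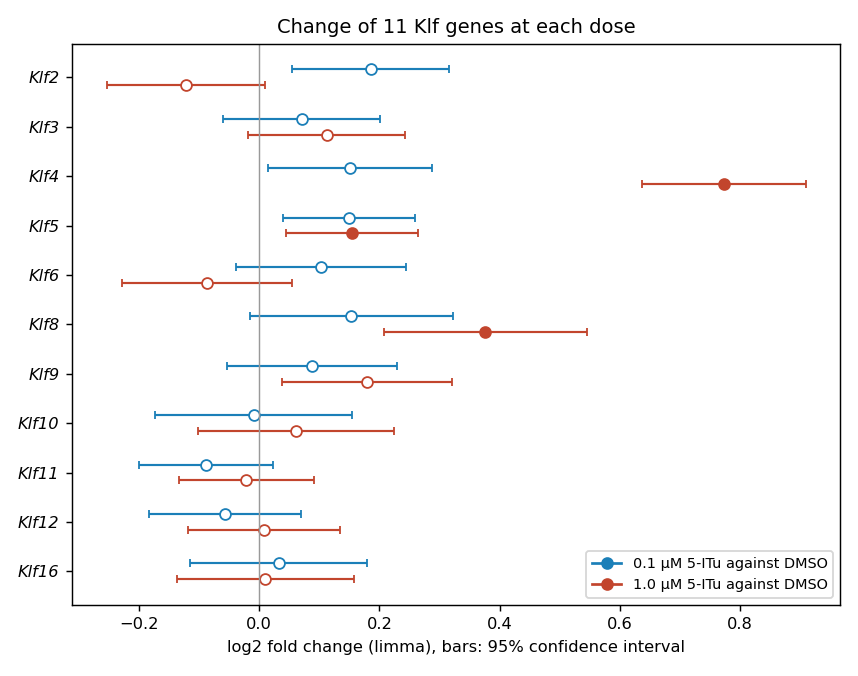
Log2 fold change against DMSO of the 11 Klf genes above the floor on all arrays for each dose of 5-ITu, with 95% confidence intervals from limma over 9 arrays. Filled points passed an adjusted p of 0.05 and open points did not. At 1.0 μM Klf4 lies at 0.77 and the next gene, Klf8, at 0.38, and at 0.1 μM no gene passed.

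Counted over the 11 genes above the floor on all arrays, 3 rose at 1.0 μM against DMSO (Klf4, Klf5 and Klf8), where 13.4% of all tested probe sets rose, and 0 fell, where 14.3% of all fell. At an unadjusted limma p under 0.05, 0 of the 11 were lower at that dose, against 21.2% of all, and with array weights 2 were called lower (Klf2 and Klf6), against 19.9%. Between the doses 1 gene was higher at 1.0 μM (Klf4) and 2 were lower (Klf2 and Klf6), against 12.3% and 17.4% of all. At 0.1 μM against DMSO 0 genes rose, against 4.66% of all, and 0 fell, against 1.56%. At an unadjusted limma p under 0.05, 3 genes were higher at this dose (Klf2, Klf4 and Klf5), against 14.5% of all, and 0 were lower, against 10.6%. With array weights 2 were called higher there (Klf2 and Klf4), against 8.55% of all. The moderated F over the 3 conditions called 4 of 11 (Klf2, Klf4, Klf5 and Klf8), a share near the 35.3% of all. This count ran from 3 to 5 over the alternatives, for which the shares of all were not computed. An F without moderation called 3, with Klf5 lost (one-way F, adjusted p = 0.0543). Changes were above 0 for 8 of 11 genes at 0.1 μM and for 8 of 11 at 1.0 μM, with medians of 0.09 and 0.06, against 0.00 and -0.01 over all tested probe sets.

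Each relative was then set against Klf4 directly, by testing its signal minus that of Klf4 on the same arrays. Klf4 had been named by the study for its rise on these arrays, and every difference shares its values. The p-values below are therefore not independent evidence that the relatives changed less. At 1.0 μM all 10 relatives above the floor on all arrays changed less than Klf4 did, as did 98.2% of all tested probe sets, so that the family does not stand apart by this count. The difference was -0.40 for Klf8 (95% confidence interval -0.54 to -0.26, limma adjusted p = 6.71e-05), -0.62 for Klf5 (adjusted p = 2.21e-06), -0.66 for Klf3 (adjusted p = 8.16e-06) and -0.89 for Klf2 (adjusted p = 3.57e-07). At 0.1 μM 1 of the 10 passed, Klf11 at -0.24 (adjusted p = 0.0496), where 20.5% of all tested probe sets changed less than Klf4. There the difference from Klf4 was 0.03 for Klf2 (95% confidence interval -0.12 to 0.19), 0.00 for Klf5 (-0.15 to 0.14) and 0.00 for Klf8 (-0.14 to 0.14).

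**Figure D3:**
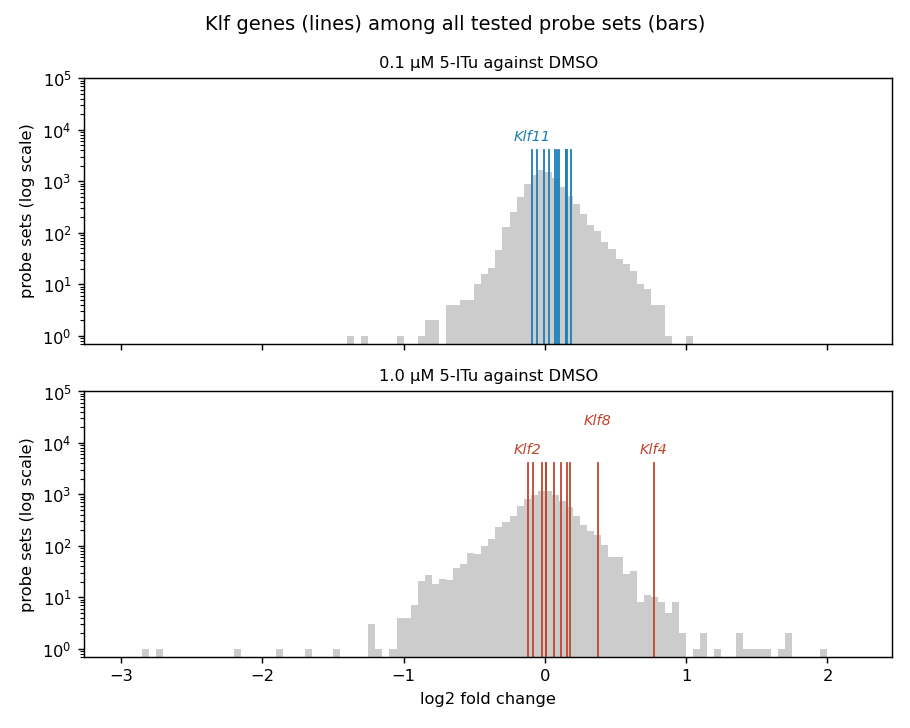
Distribution of log2 fold changes against DMSO over the 9911 tested probe sets at 0.1 μM (top) and 1.0 μM 5-ITu (bottom), on a log scale of counts, with a vertical line at each of the 11 Klf genes above the floor on all arrays. At 1.0 μM Klf4 lies in the upper tail at 0.77, and at 0.1 μM all 11 lines lie between -0.09 (Klf11) and 0.19 (Klf2).

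The genes with the profile most like that of Klf4 over the 9 arrays, by the root mean square difference after centring on DMSO among 8197 genes, were Zfp36l3 (0.09), which encodes an RNA-binding protein of the tristetraprolin family, Nqo1 (0.10), a quinone reductase, Ror2 (0.11), a Wnt receptor kinase, the linker histone gene H1f3 (0.12) and Slc25a20 (0.13), a mitochondrial carnitine carrier. At 1.0 μM these lay between 0.64 (Ror2) and 0.79 (H1f3) above DMSO. Those nearest to Klf5 were Asap1, Cradd, Denn2b, Vps11 and Dapk3, each at 0.04.

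The Sp factors, which are close relatives with the same kind of zinc fingers, could be followed for 2 of 9 listed genes. Sp1, a general activator at GC boxes, had 10.00, 9.91 and 9.88 with DMSO, 10.10, 10.07 and 10.08 with 0.1 μM, and 10.13, 10.11 and 10.09 with 1.0 μM. Both doses lay above DMSO, and at 1.0 μM Sp1 rose 1.13-fold (limma, adjusted p = 0.0150), a call lost in 2 of 18 other ways of running the test, with adjusted p = 0.0538 without DMSO replicate 3. Sp3 was 0.06 higher and did not pass (adjusted p = 0.416).

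Of the LIF, JAK and STAT3 genes, 17 of 23 listed were tested. At 1.0 μM 3 rose and 2 fell, near the 13.4% and 14.3% of all probe sets, with a median of -0.00 against -0.01 over all. At 0.1 μM 0 rose and 0 fell, against 4.66% and 1.56% of all. Lifr, the LIF receptor, had 10.69, 10.67 and 10.52 with 1.0 μM, against 10.29, 10.35 and 10.22 with DMSO. The groups did not overlap, and Lifr rose 1.26-fold (limma, adjusted p = 0.00267). Stat3, the transcription factor downstream, had 10.69, 10.73 and 10.80 with 1.0 μM, against 11.03, 11.03 and 11.00 with DMSO. It fell by 0.28 (adjusted p = 0.00162), so that receptor and transcription factor moved in opposite directions. Jak1, a kinase of the receptor, rose by 0.29 (adjusted p = 0.0171), a call lost by a narrow margin without 1.0 μM replicate 3. Tyk2, another kinase of the family, fell by 0.19 (adjusted p = 0.0273), a call lost without DMSO replicate 2 or 3 or 1.0 μM replicate 2 (adjusted p = 0.0567 to 0.0930). Gbx2, a STAT3 target named here after its values were seen, had 9.93, 9.37 and 9.01 with 1.0 μM, against 9.12, 8.66 and 8.58 with DMSO. The groups overlapped, and the difference of 0.65 (adjusted p = 0.0448) was lost in 8 of 18 other ways of running the test, among them leaving out any one array other than DMSO replicate 1 and 1.0 μM replicate 3. Without 1.0 μM replicate 1 it was 0.40 (adjusted p = 0.106).

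Among partners and bound genes of the Klf factors, 21 of 24 were tested. At 1.0 μM 2 rose and 4 fell, near the 13.4% and 14.3% of all probe sets, while at 0.1 μM 3 rose and 1 fell, against 4.66% and 1.56% of all. Lefty1, a Nodal antagonist whose promoter Klf4 activates with Oct4 and Sox2, had 10.07, 10.28 and 10.31 with 1.0 μM, against 11.27, 11.57 and 11.52 with DMSO. It fell by 1.23 at 1.0 μM (limma, adjusted p = 0.000154) and by 0.58 at 0.1 μM (adjusted p = 0.0184). The call at 0.1 μM was lost without replicate 1 or 3 of that dose or DMSO replicate 2 (adjusted p = 0.0522 to 0.0841). The study also names Lefty1 from these arrays. Tbx3, a T-box factor of naive cells, had 11.42, 11.28 and 11.27 with 1.0 μM, against 10.76, 10.88 and 10.87 with DMSO, and rose 1.40-fold (adjusted p = 0.000644). Prdm14, a repressor of differentiation, rose 1.37-fold at 1.0 μM (adjusted p = 0.00128) and 1.24-fold at 0.1 μM (adjusted p = 0.0244), a call at 0.1 μM that was lost without any one array of 0.1 μM or DMSO replicate 2 (adjusted p = 0.0623 to 0.101). Tdgf1, a Nodal coreceptor, fell by 0.24 at 1.0 μM (adjusted p = 0.00731). Other calls in this list, named after their values were seen, were Utf1 and Nr0b1, which fell by 0.24 and 0.33 at 1.0 μM (adjusted p = 0.0148 and 0.0418), and Tcl1 and Tet2, which rose by 0.55 and 0.21 at 0.1 μM (adjusted p = 0.00408 and 0.0447). Those of Nr0b1 and Tet2 were each lost in 9 of 18 other ways of running the test, with adjusted p up to 0.119 and 0.170, and that of Utf1 without DMSO replicate 3 (adjusted p = 0.0533). The core factors did not pass at 1.0 μM, with differences of 0.03 for Pou5f1 (Oct4), 0.12 for Sox2 and 0.01 for Nanog.

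Of the cofactors of the family, 15 of 19 were tested, and at 1.0 μM 2 rose and 3 fell, near the 13.4% and 14.3% of all probe sets. Kat2b, an acetyltransferase, had 9.09, 9.17 and 9.04 with 1.0 μM, against 9.55, 9.66 and 9.62 with DMSO. The groups lay apart, and Kat2b fell by 0.51 (limma, adjusted p = 0.000210). Fhl3, a LIM protein that binds Klf3, fell by 0.20 (adjusted p = 0.0131). Rcor1 and Hdac3, which belong to corepressor complexes, were 0.18 higher each (adjusted p = 0.0335 and 0.0392), with calls lost in 7 and 10 of 18 other ways of running the test (adjusted p up to 0.103 and 0.113). The demethylase gene Kdm1a, named after its values were seen, fell by 0.20 (adjusted p = 0.0449), and this was lost in 10 of 18 (adjusted p up to 0.116). Ctbp1 was 0.05 higher and Ctbp2 0.04 lower, and Sin3a and Sin3b were 0.08 lower each, none of which passed.

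Of genes for turnover and modification of Klf proteins, 16 of 20 were tested, and at 1.0 μM 1 rose and 2 fell, no more than the 13.4% and 14.3% of all probe sets. Fbxw7, the substrate receptor of a ubiquitin ligase that recognises Klf2 and Klf5, had 9.24, 9.20 and 9.01 with 1.0 μM, against 8.84, 8.87 and 8.67 with DMSO. It rose 1.28-fold (limma, adjusted p = 0.00723). Fbxo22, which targets KLF4 in human cells, fell by 0.23 (adjusted p = 0.00956), and Wwp1, a ubiquitin ligase for KLF5 in human cells, fell by 0.27 (adjusted p = 0.0116). Usp10, a deubiquitinase, was 0.16 lower and did not pass (adjusted p = 0.0527). Klf protein was not part of these data.

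**Figure D4:**
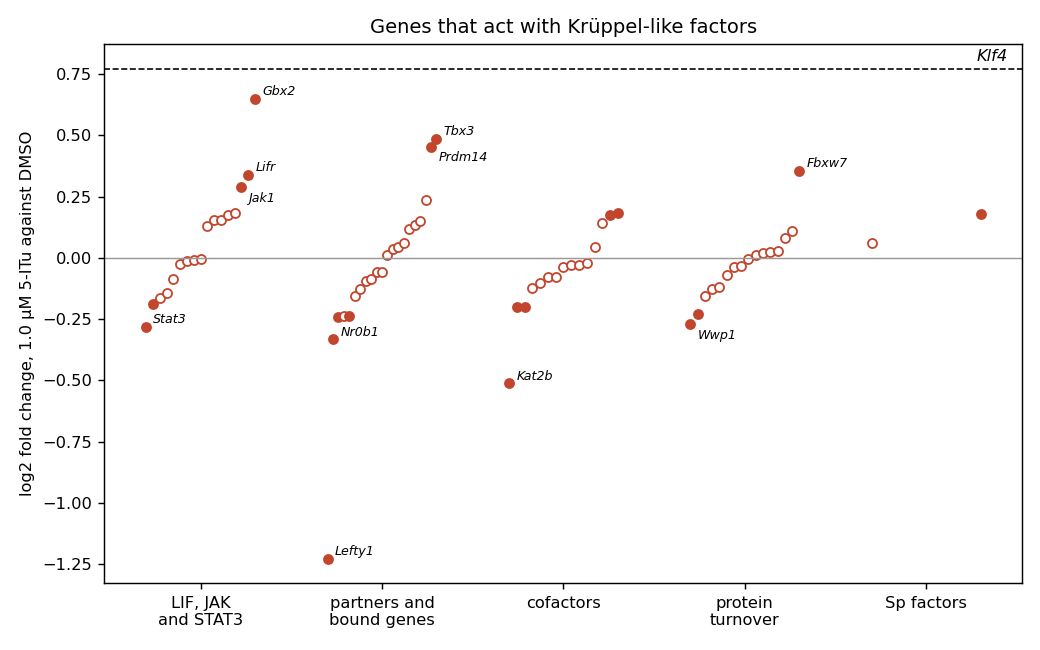
Log2 fold change at 1.0 μM 5-ITu against DMSO of each tested gene in 5 lists of genes that act with Krüppel-like factors. Filled points passed an adjusted p of 0.05, open points did not, and the dashed line is the change of Klf4 (0.77). Lefty1 (-1.23) lies lowest, and Gbx2 (0.65) lies nearest to Klf4.

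Of 12 markers of embryonic stem cells, the labelled cell type, 11 were tested. All but Esrrb, which was above the floor on 8 of 9 arrays, were above it on every array. Fn1 and Vim of the fibroblast list and Krt8 of the trophectoderm list were also above it on all 9. A signal above the floor thus does not identify the cell type. The counts of called markers that follow stand against 13.4% higher and 14.3% lower of all tested probe sets at 1.0 μM and against 4.66% higher and 1.56% lower at 0.1 μM, and most lists had few tested genes. The mean signal of the 11 embryonic stem cell markers was 11.57 to 11.60 on DMSO arrays, 11.58 to 11.59 at 0.1 μM and 11.41 to 11.51 at 1.0 μM. Of these markers 3 fell at 1.0 μM (Lin28a, Tdgf1 and Utf1). Of 13 markers of 2-cell-like cells 6 were tested and 3 rose at 1.0 μM (Sp110, Usp17le and Gm4340). Zscan4c, Zscan4d and Eif1a did not pass at that dose, with differences from DMSO of 0.12, 0.04 and 0.10. The mean signal over all 6 was 9.93 to 9.99, 9.80 to 9.95 and 10.22 to 10.45 in the 3 conditions. Of 12 trophectoderm markers 5 were tested, and 2 rose at 1.0 μM (Tfap2c and Krt8) while Tfap2c fell and Plet1 rose at 0.1 μM, with mean signals of 9.79 to 9.92, 10.03 to 10.13 and 9.99 to 10.13. Of 12 primitive endoderm markers 3 were tested, with 1 higher at 0.1 μM (Lama1), 1 lower at 1.0 μM (Lamb1) and mean signals of 9.22 to 9.34, 9.41 to 9.49 and 9.14 to 9.21. Of 12 fibroblast markers 5 were tested, with 2 higher at 0.1 μM (Cald1 and Fbln1, leaving out Thy1, whose DMSO arrays were all under the floor) and 1 lower at 1.0 μM (Fn1). Mean signals over all 5 were 10.16 to 10.28, 10.39 to 10.48 and 10.27 to 10.32. These means include Thy1, so part of their difference at 0.1 μM is that of Thy1, and means without it were not computed. The calls of Tfap2c, Lama1, Cald1 and Fbln1 at 0.1 μM were lost without any one array of that dose (adjusted p = 0.0551 to 0.151), and those of Lamb1 and Fn1 at 1.0 μM without several single arrays (adjusted p up to 0.124 and 0.0618). The call of Plet1 at 0.1 μM was not run in these alternatives. The part of these markers in the Klf values was not tested.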

How the data were processed

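RNA of E14 cells was measured on 9 Affymetrix Mouse Gene 2.0 ST arrays, 3 per condition. Per the labels and methods, the authors processed the arrays by RMA in Affymetrix Expression Console, analysed them in GeneSpring and kept probes above a background threshold; the deposited table gives a log2 signal for each of 10476 probe sets, which was used as the authors normalized it. The genome build is not given in the sources used here. Gene symbols came from the platform annotation, and 8854 probe sets named 1 gene. The 13 Klf symbols and their gene identifiers matched RefSeq of GRCm38.p6.

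Probe sets above a log2 signal of 8.46 on at least 3 arrays (9911) were fitted with limma 3.58.1 in R 4.3.3 over all 9 arrays, with Benjamini-Hochberg adjustment and a threshold of 0.05. The relatives were compared with Klf4 by a fit to each signal minus that of Klf4. The code was tested on simulated data. Figures were drawn with matplotlib 3.10.9.

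Named genes were all Klf genes, Sp genes called at either dose, up to 4 genes per list with the smallest p at 1.0 μM, and the 5 profiles nearest to Klf4 and to Klf5. Other genes named in the report, in the figures or among the markers were chosen after their values were seen. The members and lists were chosen with earlier results of these data known. The alternatives were other filters, normalizations, variance settings and thresholds, fits of 2 conditions alone, replicate blocks, an unmoderated F and leaving out each array. The number of arrays limits the precision. Replicate numbers are shared by the conditions, and the labels do not say whether same-numbered arrays share a culture. Correlations of their deviations ran from -0.02 to 0.51 over 9 same-numbered pairs, against -0.44 to 0.26 over 18 other pairs. The highest were between DMSO and 1.0 μM, 0.51 for replicate 1 and 0.44 for replicate 3. The arrays were not treated as pairs, and a fit with the replicate number as a block is given below.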

Additional observations from a re-analysis of the deposited data

Results flagged for a closer look

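In 2 Klf genes the changes at the doses ran in opposite directions and the difference between the doses passed the test (limma, 3 arrays per group). Between the doses 12.3% of all tested probe sets were higher at 1.0 μM and 17.4% lower. How many of those also ran in opposite directions was not counted. Klf2 was 0.12 lower at 1.0 μM and 0.19 higher at 0.1 μM than with DMSO, with a difference between the doses of -0.31 (adjusted p = 0.00468). Klf6 was 0.09 lower at 1.0 μM and 0.10 higher at 0.1 μM, with a difference of -0.19 (adjusted p = 0.0483), which did not pass in 9 of 18 other ways of running the test. None of the 4 changes against DMSO in these genes passed.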

How the results depend on the processing

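Of 43 comparisons of the 11 Klf genes above the floor on all arrays, 35 kept their call in every alternative that gave a value (up to 18 each), and no called value turned its direction. Of the 27 that were not called, 8 changed sign in some alternative. The 43 include the differences from Klf4 at 1.0 μM, where 98.2% of all tested probe sets also changed less than Klf4. Among the called changes, that of Klf5 at 1.0 μM against DMSO was lost in 10 of 18 alternatives. That of Klf6 between the doses was lost in 9 of 18. Klf4 at 1.0 μM against DMSO stayed between 0.71 and 0.82 with adjusted p at most 0.00207, and Klf8 between 0.28 and 0.44. The count of Klf genes higher at 0.1 μM, 0 as reported, was 2 at an adjusted p under 0.1 (8.69% of all probe sets). It was 2 with array weights (8.55% of all) and 0 to 1 when 1 array was left out. The count higher at 1.0 μM against DMSO, 3 as reported, was 1 with an unadjusted p under 0.05 and a change over 1.5-fold (1.05% of all probe sets), 2 to 4 in the other alternatives and 2 to 3 when 1 array was left out. The count lower at 1.0 μM against DMSO, 0 as reported, was 2 with array weights (Klf2 and Klf6), against 19.9% of all. It was 0 to 1 when 1 array was left out. The count lower at 1.0 μM against 0.1 μM, 2 as reported, was 0 with an unadjusted p under 0.05 and a change over 1.5-fold (2.26% of all). It was 1 with no filter, quantile normalization or median centring, where Klf6 was lost, and 1 to 2 when 1 array was left out. The count higher at 1.0 μM against 0.1 μM was 2, with Klf8 added, at an adjusted p under 0.1 (16.7% of all probe sets). With array weights it was also 2 (23.8% of all). The filter over all 9 arrays, quantile normalization, median centring, trend and robust variance, and 1 probe set per gene gave 2 as well. When 1 array was left out it was 1 to 2. The cause of these moves was not tested.

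With the replicate number as a block, this count was also 2. Klf5 at 1.0 μM against DMSO lost its call (limma, adjusted p = 0.0557), and Klf8 gained one between the doses (adjusted p = 0.0399). No other Klf call between 2 conditions changed. The moderated F over the 3 conditions called 3 Klf genes with the block instead of 4, and the share of all probe sets was not computed for it. Averaging all probe sets of a gene gave no other value, since each Klf gene had 1. At 0.1 μM the 95% confidence intervals of Klf2 (0.05 to 0.32) and Klf5 (0.04 to 0.26) lay above 0 while their adjusted p missed the threshold, and signal over background limits Klf7 and Klf15.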
